A study of Rattus with 27 samples.

Results

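Gene expression in circulating white blood cells was compared between rats carrying the vehicle label after middle cerebral artery occlusion (MCAO), a model of ischaemic stroke in which an artery supplying the brain is blocked, and sham-operated rats. The comparison used 3 vehicle-labelled and 3 sham arrays of the 27 arrays in the series. It covered all 14506 genes for which a probe was listed with exactly 1 gene symbol. A gene with several such probes was represented by the probe of highest mean value across the 27 arrays.

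The series held 9 Sprague Dawley rats killed at 6 h, in 3 groups of 3, and each rat gave brain, spleen and white blood cells. The sham rats (numbered 3, 4 and 5 in the titles) underwent anaesthesia and vessel exposure without occlusion. The model-labelled rats (1, 2 and 3) and the vehicle-labelled rats (2, 4 and 5) all had MCAO. The protocol text speaks of a vehicle control group and of a group given the formula YJ at 25 mg/kg, but names no model group. Which of the 2 MCAO groups received YJ is therefore not settled by the labels, and no difference is read here as an effect of treatment. Age and sex are not given in the sources used here. The white cells were separated from whole blood and not sorted further. The labels carry neither a batch nor an array date, and batch and group therefore cannot be told apart, and the p-values measure only the spread between these samples.

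Blood leukocytes are mostly lymphocytes, neutrophils and monocytes, and a preparation from whole blood can also carry platelets, red cells and reticulocytes, the young red cells that still hold RNA for globin and for the enzymes of haem synthesis. Neutrophils make their granule proteins while they mature in the bone marrow and keep little of that RNA afterwards. Surgery and ischaemia are known to release neutrophils from the marrow within hours and to turn on stress programmes such as the heat shock response, in which the chaperones Hsp90, Hsp70 and Hsp110 rise together.

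All values are log2 array values, so a difference of 1 stands for a 2-fold change, and the level of one gene is not set against that of another. Differences are given with their standard error from limma over the 9 white-cell arrays, and a gene is said to have risen or fallen where the Benjamini-Hochberg adjusted p over all genes was under 0.05. The 4 markers fixed for leukocytes in general, Ptprc, Coro1a, Cd53 and Laptm5, did not pass the test. Ptprc, which encodes the leukocyte surface phosphatase CD45, had a mean of 10.85 ± 0.12 in the sham group, of 10.86 ± 0.11 in the model-labelled group and of 10.74 ± 0.17 in the vehicle-labelled group (SD, n = 3). Cd53, a leukocyte tetraspanin, averaged 11.57, 11.69 and 11.62 in the same order. The markers fixed for neurons, glia, liver and exocrine pancreas did not pass the test. Of the 18 genes of that list 16 had a negative difference, as had 9282 of all 14506 genes. The sham 3 array stood apart from the other 8 white-cell arrays, with a median over all probes of 5.23 where the others lay between 4.96 and 5.06. Its highest correlation with another white-cell array was 0.988, where the highest for any pair was 0.995. Its median correlation with the other arrays, 0.986, was no lower than those of vehicle 2 and vehicle 4 (each 0.986). Results that rest on it are given with and without it.

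In vehicle-labelled white cells 229 genes rose and 62 fell against sham, together 2.01% of the genes tested (1.58% higher and 0.427% lower). Of these 291 genes, 131 differed at least 2-fold, 129 of them higher and 2 lower. The rises ran from small changes to 12.5-fold, and apart from Cd52 and Hemgn the 12 largest were members of the erythroid or the neutrophil granule lists. The vehicle-labelled and sham arrays did not overlap for 290 of the 291 genes, as they did not for 2215 of all 14506 (15.3%). Over all genes the median difference was -0.06, and 35.9% of the genes had a positive difference. Without the sham 3 array 202 genes passed, 172 higher and 30 lower, of which 185 were among the 291. The median then became -0.01 and the share of positive differences 47.4%. When each array was centred on its own median, 251 genes rose and 17 fell, so the number of falls depends on how the arrays are scaled. Without the vehicle 4 array 162 genes passed. In a fit of all 27 arrays, which pools the spread of the 3 tissues, 202 passed, and of the genes described below that kept their call whichever white-cell array was left out, Camp, Dmtn, Nr4a1, Slc14a1, Tfrc, Tpx2 and Trem1 did not.

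**Figure D1:**
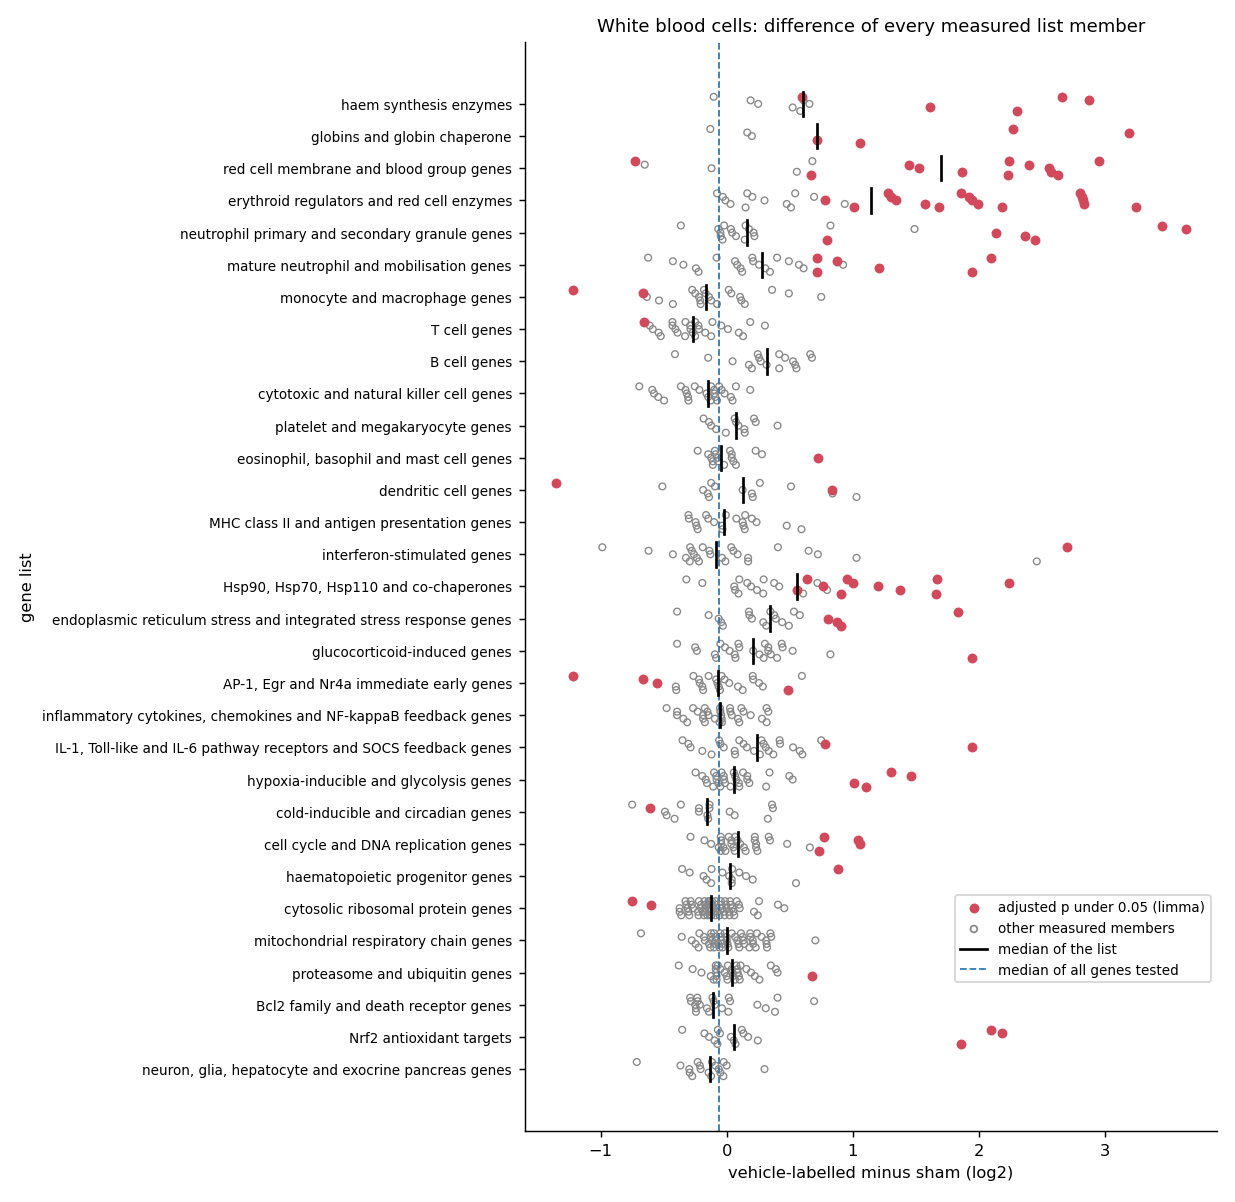
Difference between vehicle-labelled and sham white blood cells (log2, horizontal axis) for every measured member of 31 gene lists (rows). Filled red points passed the test in limma, open points did not, the black bars are list medians, and the dashed line is the median of all genes (-0.06). The 4 erythroid lists at the top hold 37 of the red points to the right, and the Hsp90, Hsp70 and Hsp110 list 11.

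Red cell genes gave the most calls of any kind listed. Of 65 measured genes in the 4 erythroid lists, 37 rose and 1 fell, against 1.58% of all genes that rose. The median difference was 1.01, and the 37 that rose lay between 0.60 and 3.25. Leaving out 1 array at a time gave between 32 and 42 rises, the fewest without vehicle 4. In a bulk sample more cells of a type and more RNA per cell cannot be told apart, so these values do not say whether more reticulocytes were present.

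Of 12 measured genes of haem synthesis and mitochondrial iron supply, 5 rose. Alas2, the erythroid enzyme that starts haem synthesis, read 8.50, 8.45 and 9.10 in sham 3, 4 and 5 and 11.62, 11.47 and 10.95 in vehicle 2, 4 and 5. The groups did not overlap, and the lowest vehicle-labelled array was well above the highest sham array. The difference was 2.66 ± 0.19, or 6.33-fold (limma, adjusted p = 1.02e-05). Fech, which inserts iron into the haem ring, read 7.89, 7.46 and 8.22 in sham and 11.09, 10.88 and 10.23 in vehicle-labelled cells. It rose by 2.88 ± 0.21. Slc25a37, the mitochondrial iron importer mitoferrin-1, rose by 2.30 ± 0.23, and Urod, an enzyme in the middle of the pathway, by 1.61 ± 0.19. The fifth was Cpox (0.60 ± 0.13, adjusted p = 0.0338), whose call was kept in 2 of the 9 fits that leave out 1 array, with adjusted p-values from 0.0367 to 0.134; the 2 were those without sham 4 and without model 3.

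Of 7 measured globin genes and their chaperone, 4 rose. Hba-a3, an alpha-globin gene, read 9.88, 9.90 and 10.33 in sham and 12.46, 12.29 and 12.18 in vehicle-labelled arrays, a rise of 2.27 ± 0.14 (limma, adjusted p = 3.41e-06). Ahsp, which encodes the chaperone of free alpha-globin, read 6.45, 6.76 and 8.21 in sham and 10.69, 10.27 and 10.03 in vehicle-labelled arrays, a rise of 3.19 ± 0.34. Sham 5 was the highest sham array for both genes. The beta-globin genes moved less: Hbb-b1 rose by 1.06 ± 0.11 and Hbb by 0.71 ± 0.11. Hbb read 12.36 to 12.51 in sham and 13.11 to 13.17 in vehicle-labelled arrays, close to the highest value in the whole table (13.49). Whether signals were compressed at that level was not tested. Copies of the globin genes are nearly identical in sequence, so the share of each copy is uncertain. The 3 embryonic and fetal globin genes measured, Hbe1, Hbe2 and Hbg1, did not pass the test.

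Red cell membrane and blood group genes were the list with the highest share of calls, 11 risen and 1 fallen of 16, with a median of 1.70. Rhd, the Rh blood group protein, read 7.08, 6.99 and 7.49 in sham and 10.61, 10.42 and 9.39 in vehicle-labelled arrays. It rose by 2.95 ± 0.25 (limma, adjusted p = 3.02e-05), and vehicle 5 was the lowest of its group. Slc4a1, the anion exchanger band 3, read 8.72, 8.40 and 9.31 against 11.41, 11.18 and 10.57, a rise of 2.24 ± 0.24. The membrane skeleton and its anchors were represented by Add2 (2.55), Ank1 (2.40), Sptb (2.23), Epb42 (2.58), Tmod1 (1.87) and Dmtn (1.53), and the water channel by Aqp1 (2.63). Cd59b (0.67) and Trim10 (1.44) also passed, but not without sham 3 or without vehicle 4, nor Cd59b without vehicle 2 or Trim10 without sham 4, where their adjusted p-values rose to at most 0.112 and 0.0671. The 1 gene that fell was Slc14a1, the urea transporter of the Kidd blood group. It read 8.32, 8.10 and 8.15 in sham and 7.56, 7.44 and 7.38 in vehicle-labelled arrays, so every vehicle-labelled array was below every sham array. The difference was -0.73 ± 0.11 (limma, adjusted p = 0.00301). Rhag (0.68, adjusted p = 0.321) and Xk (-0.65) did not pass.

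Among erythroid regulators and red cell enzymes 17 of 30 rose and none fell, with a median of 1.14. Car1, a red cell carbonic anhydrase, read 5.01, 5.04 and 5.51 in sham and 9.29, 8.61 and 7.40 in vehicle-labelled arrays. It rose by 3.25 ± 0.34, or 9.49-fold (limma, adjusted p = 0.000113), although vehicle 2 and vehicle 5 were almost 2 units apart. Bpgm, which makes the phosphate compound that lowers the oxygen affinity of haemoglobin, read 7.26, 7.60 and 7.99 in sham and 10.79, 10.55 and 10.00 in vehicle-labelled arrays, a rise of 2.83 ± 0.20. Car2 (2.81), Creg1 (2.82) and Tfdp2 (2.83), a partner of the E2F factors, rose by like amounts. Klf1, the master transcription factor of red cell genes, read 6.23, 6.03 and 6.22 in sham and 8.75, 8.28 and 7.43 in vehicle-labelled arrays (1.99 ± 0.24). Tfrc, the transferrin receptor by which maturing red cells take up iron, read 5.17, 5.32 and 5.39 against 7.30, 7.24 and 6.39 (1.68 ± 0.22). The antioxidant enzymes Cat (1.57), Prdx2 (1.95) and Blvrb (2.18) rose as well, and so did Eif2ak1 (1.35), the haem-regulated kinase, and Bnip3l (1.01), which marks mitochondria for removal in reticulocytes. The calls of Fbxo7 (0.78) and Ube2l6 (1.28) were each lost in several fits that leave out 1 array, namely those without sham 4, sham 5, vehicle 2 and vehicle 4 and, for Fbxo7, without model 1 and sham 3, and their adjusted p-values reached 0.147 and 0.116. Gata1, which controls red cell and platelet genes, had a difference of 0.94 (adjusted p = 0.0742), and Epor (-0.08) and Tal1 (0.16) were near 0. Genes of other lineages known to use Gata1 were also counted. None of 13 platelet genes passed, Pf4 (-0.08) and Gp9 (0.14) among them, where 2.01% of all genes did. A share of that size would give few or no calls in so short a list. Of 18 eosinophil, basophil and mast cell genes, Cpa3 (-0.09) among them, only Prg2 rose (0.73), or 5.56% against 1.58% of all genes. That call was lost without sham 4, sham 5 or vehicle 2. The bearing of these values on the erythroid rises was not tested.

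The 3 vehicle-labelled rats did not contribute alike. Of the 37 genes, 32 were highest in vehicle 2 and 5 in vehicle 4, and 34 were lowest in vehicle 5. The mean of the erythroid regulators and enzymes, relative to the sham mean, was 1.53 in vehicle 2, 1.37 in vehicle 4 and 0.84 in vehicle 5, and in the sham arrays it ran from -0.15 to 0.19. The membrane list gave 1.72, 1.66 and 0.90 in the vehicle-labelled arrays and up to 0.29 in sham 5. The same order was seen among all 229 genes that rose, 150 of which were highest in vehicle 2 and 164 lowest in vehicle 5.

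**Figure D2:**
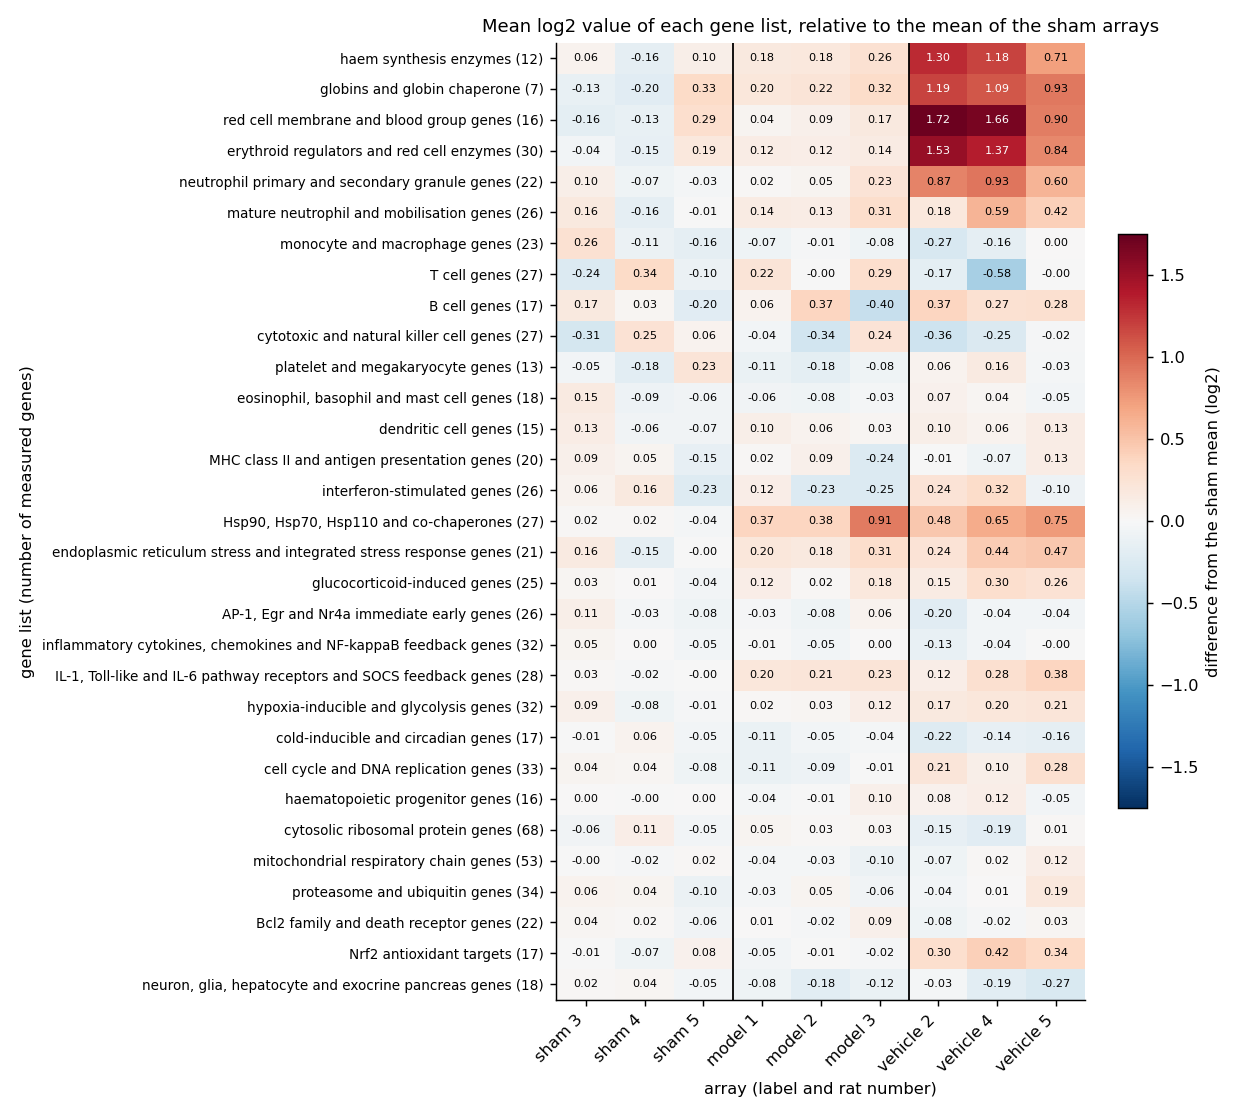
Mean log2 value of each gene list (rows, number of measured genes in brackets) in each of the 9 white-cell arrays (columns), relative to the mean of the 3 sham arrays. Red is above and blue below sham. The 4 erythroid lists stand at 0.71 to 1.72 in the vehicle-labelled arrays and at no more than 0.33 in any other array, whereas the Hsp90, Hsp70 and Hsp110 list is raised in both MCAO groups.

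Cd52 and Hemgn were among the 12 largest rises though they are in no erythroid list. Hemgn, which encodes the nuclear protein hemogen of blood-forming and red cell precursors, read 7.11, 7.06 and 7.33 in sham and 10.55, 10.21 and 9.33 in vehicle-labelled arrays, a rise of 2.86 ± 0.23. Cd52, a small surface glycoprotein known from lymphocytes and other leukocytes, read 6.29, 6.37 and 6.38 in sham and 9.83, 9.36 and 8.68 in vehicle-labelled arrays. It rose by 2.94 ± 0.22, or 7.69-fold. Both genes were highest in vehicle 2 and lowest in vehicle 5.

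Neutrophil granule genes gave the largest single rises, but only part of the list moved. Of 22 measured genes of primary and secondary granules, 6 rose and none fell, against 1.58% of all genes, with a list median of 0.16. The list mean stood 0.87, 0.93 and 0.60 above the sham mean in vehicle 2, 4 and 5, and the erythroid lists were raised on the same arrays, a part in these values that was not tested. Ngp, the neutrophilic granule protein of the secondary granules, read 4.25, 3.60 and 3.93 in sham and 7.89, 7.04 and 7.78 in vehicle-labelled arrays. The groups were far apart, and vehicle 4 was the lowest of the 3. The difference of 3.64 ± 0.23, or 12.5-fold, was the largest of any gene that passed the test (limma, adjusted p = 3.41e-06). The sham white-cell mean of 3.93 was close to the mean of 3.66 in sham brain, so the fold is counted from a low signal. Lcn2, which encodes lipocalin 2, a granule protein that withholds iron from bacteria, read 5.31, 4.76 and 5.04 in sham and 8.80, 8.06 and 8.61 in vehicle-labelled arrays, a rise of 3.45 ± 0.22.

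The other 4 granule genes that rose were Olfm4, Pglyrp1, Camp and Mmp8. Olfm4, a marker of a subset of neutrophils, read 3.45, 3.53 and 3.38 in sham and 6.09, 5.16 and 5.51 in vehicle-labelled arrays (2.13 ± 0.24). Pglyrp1, which binds bacterial cell walls, read 6.23, 5.78 and 5.35 against 8.23, 8.92 and 7.54 (2.44 ± 0.34). Camp, the cathelicidin antimicrobial peptide, differed by 0.80 ± 0.14. A filter for genes above the 40th percentile of mean value removed Olfm4 and Camp, as it did Fpr1 below. Mmp8, the neutrophil collagenase, read 6.57, 6.19 and 6.08 against 8.51, 9.90 and 7.52, a rise of 2.36 ± 0.52 (limma, adjusted p = 0.0346) with vehicle 4 far above the others. Its call was lost without any 1 of sham 3, 4 and 5, vehicle 2 and vehicle 4 (adjusted p up to 0.124). The fixed markers Mpo and Elane, of the primary granules, and Ltf, or lactoferrin, of the secondary granules, stayed near 0. Mpo differed by 0.04 (limma, adjusted p = 0.915), Elane by -0.02 (0.961) and Ltf by -0.05 (0.896). Mmp9, the gelatinase of the tertiary granules, had a difference of 1.49 that did not pass (0.123).

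Of 26 genes of mature neutrophils and their mobilisation, 6 rose and none fell (23.1% rose, against 1.58% of all genes), with a median of 0.28. S100a9, a subunit of calprotectin, read 8.95, 8.49 and 8.76 in sham and 9.54, 10.44 and 9.84 in vehicle-labelled arrays, a rise of 1.21 ± 0.21 (limma, adjusted p = 0.0074). Trem1, a receptor that amplifies inflammatory signals, read 9.05, 9.09 and 9.10 against 9.64, 9.85 and 9.89 (0.71 ± 0.12). Csf3r, the receptor of the growth factor G-CSF, read 8.80, 8.85 and 8.96 against 9.33, 9.69 and 9.75 (0.72 ± 0.13). The groups were apart for all 3 genes, and the sham arrays of Trem1 lay almost on one value. Csf3r lost its call without vehicle 4 (adjusted p = 0.0547).

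The remaining mature neutrophil genes were more variable. Fpr1, the formyl peptide receptor, read 4.41, 3.60 and 4.02 in sham and 5.95, 7.39 and 4.98 in vehicle-labelled arrays (2.10 ± 0.45). Il1r2, the decoy receptor of interleukin 1, read 5.94, 4.42 and 5.55 against 6.65, 8.07 and 7.02 (1.94 ± 0.45). Ptafr, the receptor of platelet activating factor, differed by 0.88 ± 0.18. All 3 passed but lost their call in 4 to 6 of the fits that leave out 1 array, each of them without sham 3, sham 4 or vehicle 4, Fpr1 and Il1r2 without sham 5, Fpr1 without vehicle 2, Ptafr and Il1r2 without vehicle 5 and Il1r2 without model 1, with adjusted p-values up to 0.103 for Fpr1, 0.194 for Il1r2 and 0.116 for Ptafr. S100a8, the partner of S100a9, differed by 0.20 (adjusted p = 0.738) and the chemokine receptor gene Cxcr2 by 0.92 (0.151). Over the whole mature neutrophil list, vehicle 4 was highest (0.59 above the sham mean) and vehicle 2 lowest of its group (0.18), which was not the order of the erythroid lists. Together the 2 neutrophil lists held 12 rises among 48 genes, and 7 without vehicle 4.

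**Figure D3:**
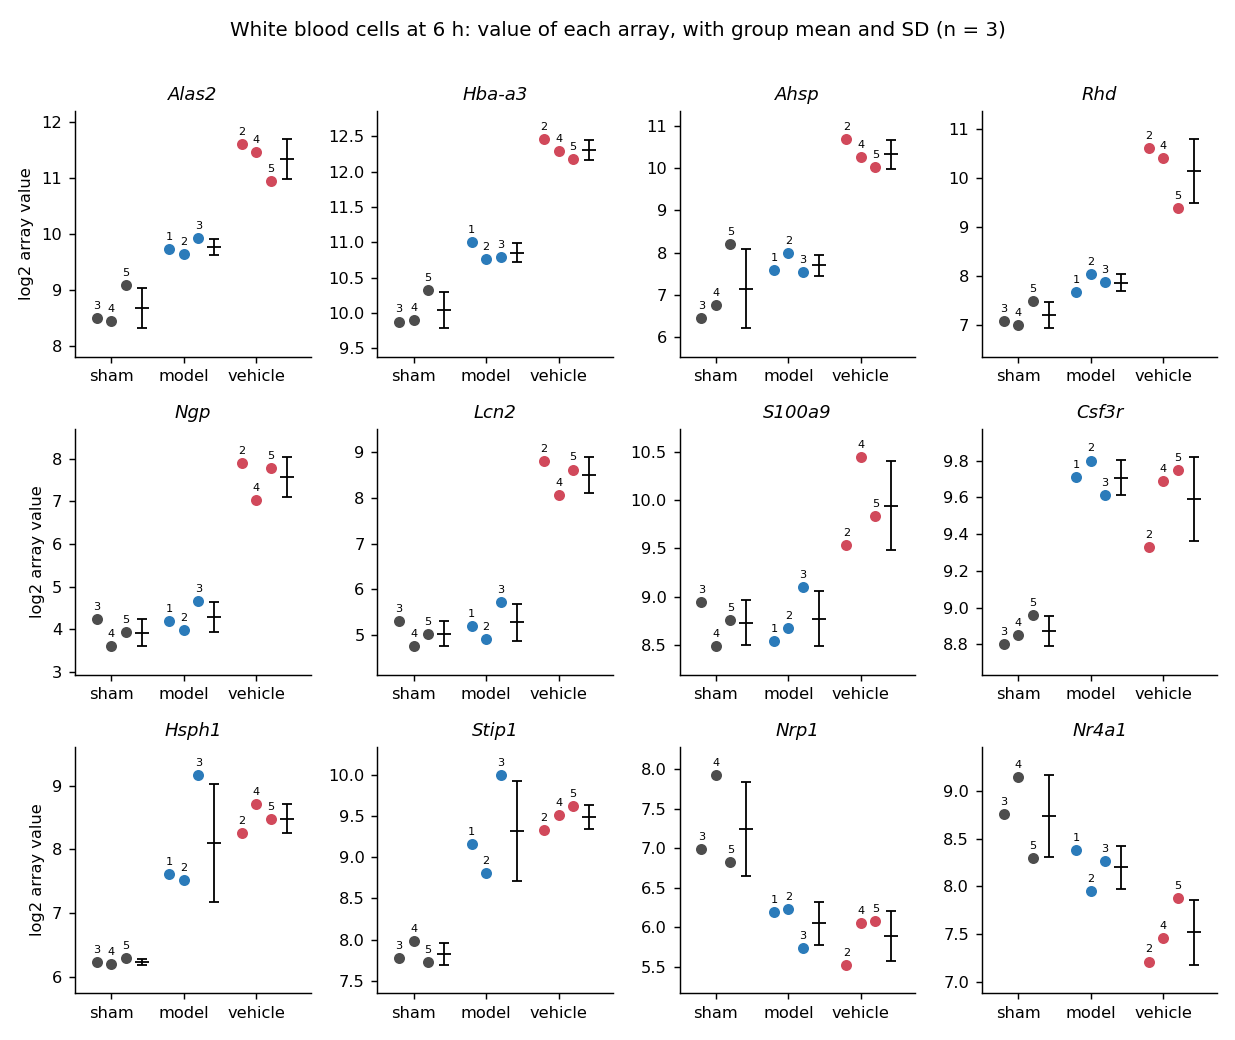
Log2 value of 12 genes in each of the 9 white-cell arrays, with the rat number above each point and the group mean ± SD (n = 3) beside it. Each panel has its own vertical axis, which does not start at 0. The erythroid genes and Ngp, Lcn2 and S100a9 are highest in vehicle-labelled arrays, whereas Csf3r, Hsph1 and Stip1 lie above sham in both MCAO groups and Nrp1 and Nr4a1 below it in most MCAO arrays.

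Genes of the other leukocytes were counted by list. Of 27 T cell genes, 1 fell and none rose (3.7% fell, against 0.427% of all genes). The median was -0.27, with 22 genes negative, where 9282 of all 14506 genes were negative. Cd6, a T cell co-receptor, read 7.62, 7.91 and 7.64 in sham and 7.13, 6.82 and 7.25 in vehicle-labelled arrays (-0.66 ± 0.15, limma, adjusted p = 0.0397). It kept its call in 3 of the 9 fits that leave out 1 array (those without model 2, model 3 or vehicle 5). No T cell gene passed without sham 3, or with each array centred on its median. The defining genes Cd3e (-0.43, adjusted p = 0.368), Cd3d (-0.54), Cd3g (-0.39) and Lck (-0.25) did not pass. Of 17 B cell genes none passed, where 2.01% of all genes did, though 15 were positive, against 35.9% of all genes. The median was 0.32, with Ms4a1 (CD20) at 0.54 and Cd79b at 0.05. None of 27 cytotoxic and natural killer cell genes passed, against the same 2.01%, 23 being negative with a median of -0.15. Sham 3 itself lay low in the T cell (-0.24) and natural killer (-0.31) lists and sham 4 high (0.34 and 0.25), so the sham arrays spanned much of the range of the vehicle-labelled ones. These arrays also carried the erythroid rises given above, whose part in the leukocyte values was not tested.

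Of 23 monocyte and macrophage genes 2 fell, Nr4a1 and Klf4, and none rose (8.7% fell, against 0.427% of all genes). Csf1r, the receptor of the macrophage growth factor, differed by -0.22, Ccr2, which draws monocytes from the marrow, by 0.12, Cx3cr1 by -0.63 and the endotoxin co-receptor gene Cd14 by 0.75 (adjusted p = 0.107), none past the test. Among 15 dendritic cell genes Nrp1 fell and the lectin gene Clec10a rose by 0.83 ± 0.20 (adjusted p = 0.0492), together 13.3% of the list against 2.01% of all genes. The call of Clec10a held in only 1 of the 9 fits that leave out 1 array, the one without sham 5 (adjusted p up to 0.173). Of 18 eosinophil, basophil and mast cell genes only Prg2, the major basic protein of eosinophils, passed (5.56% rose, against 1.58% of all genes), at low level (4.42, 4.22 and 4.19 in sham, and 5.38, 4.74 and 4.89 in vehicle-labelled arrays, 0.73 ± 0.15). It was not called without sham 4, sham 5 or vehicle 2 (adjusted p up to 0.0905). None of 13 platelet genes passed, with Pf4 at 12.65 in sham and 12.57 in vehicle-labelled samples. The 20 genes of MHC class II and antigen presentation gave no call and a median of -0.02. With 2.01% of all genes called, few or no calls would be expected in lists of these sizes.

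Chaperone genes of the heat shock response were the next group with many calls. Of 27 measured genes of the Hsp90, Hsp70 and Hsp110 families and their co-chaperones, 11 rose and none fell, against 1.58% of all genes. The median was 0.56, with 25 of 27 positive, where 35.9% of all genes were positive. Leaving out 1 array at a time gave 5 to 14 rises, the fewest without vehicle 4, and 6 without sham 3. Hsph1, an Hsp110 chaperone, read 6.23, 6.20 and 6.29 in sham and 8.26, 8.71 and 8.48 in vehicle-labelled arrays. It rose by 2.24 ± 0.32, or 4.73-fold (limma, adjusted p = 0.00137). Hsp90aa1, the inducible Hsp90 gene, read 8.54, 8.55 and 8.43 against 9.93, 10.12 and 10.48 (1.67 ± 0.24). Stip1, which passes client proteins from Hsp70 to Hsp90, read 7.78, 7.98 and 7.73 against 9.33, 9.51 and 9.62 (1.66 ± 0.23). The sham arrays of all 3 genes lay close together and no vehicle-labelled array came near them.

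The other chaperone genes that rose were Dnaja1 (1.37), Cacybp (1.20), Fkbp4 (1.00), Ahsa2 (0.96), Chordc1 (0.90), Hsp90ab1 (0.76), Ptges3 (0.64) and Hspa8 (0.56). Hspa8, the constitutive Hsp70 gene, has close copies in the genome that can share its probe. Fkbp4, the Hsp90-bound partner of the steroid receptors, kept its call whichever array was left out. Of the rest, Dnaja1 lost it without vehicle 4 (adjusted p = 0.0566), Hsp90ab1 without vehicle 5 (0.0521) and Cacybp without sham 3 or vehicle 4 (at most 0.0539). Ahsa2, Chordc1, Ptges3 and Hspa8 lost it in 5 to 7 of the 9 fits, each without sham 3, sham 5, vehicle 4 or vehicle 5 and some without model 1, model 2, sham 4 or vehicle 2 (at most 0.18, 0.183, 0.143 and 0.0686). Dnajb1 (0.80, adjusted p = 0.0612), Hspd1 (0.72, 0.101), Hspb1 (0.42, 0.3) and Bag3 (0.07) did not pass. In contrast to the erythroid genes, 9 of the 11 were lowest in vehicle 2 and 8 were highest in vehicle 5.

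Of 21 genes of endoplasmic reticulum stress and the integrated stress response, 4 rose and none fell (19% rose, against 1.58% of all genes). The list median was 0.35. Asns, asparagine synthetase, read between 6.64 and 7.04 in sham and between 8.06 and 9.02 in vehicle-labelled arrays, lowest in vehicle 5, a rise of 1.83 ± 0.21 (limma, adjusted p = 0.000248). Pdia4 (0.91), Sdf2l1 (0.87) and Creld2 (0.80), which encode proteins that help folding in the endoplasmic reticulum, rose less. Pdia4 lost its call without sham 4 (0.0522), Sdf2l1 without sham 4, vehicle 4 or vehicle 5 (at most 0.0812), and Creld2 in 7 of 9 fits, kept without sham 5 or vehicle 2 (at most 0.201). Without sham 4 only 1 gene of the list passed. Hspa5 (0.49), Atf4 (-0.06) and Ddit3 (0.29), central members of the pathway, did not pass.

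Inflammatory signalling genes were counted in the same way. None of 32 cytokine, chemokine and NF-kappaB feedback genes passed, where 2.01% of all genes did, a share that would give few or no calls in such a list. The median was -0.05, close to that of all genes. Of 28 genes of the interleukin 1, Toll-like and interleukin 6 receptor pathways, Il1r2 and Tlr2 rose (7.14%, against 1.58% of all genes). Tlr2, a receptor of bacterial lipoproteins, read 5.10, 5.21 and 5.19 in sham and 5.69, 5.79 and 6.35 in vehicle-labelled arrays (0.78 ± 0.15), and lost its call without sham 3 (adjusted p = 0.0682). Of 26 interferon-stimulated genes 1 rose (3.85%, against 1.58% of all genes). This was Rsad2, whose protein viperin restricts viruses. It read 7.65, 7.75 and 8.26 in sham and 10.99, 10.78 and 9.98 in vehicle-labelled arrays, a rise of 2.70 ± 0.24 (limma, adjusted p = 3.08e-05) in a list whose median was -0.08. Its order over the 3 vehicle-labelled arrays was that of most erythroid genes. Of 25 glucocorticoid-induced genes only Il1r2 passed (4% rose, against 1.58% of all genes, list median 0.21).

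Among 26 immediate early genes Nr4a1, Klf4 and Klf10 fell and Klf6 rose, together 15.4% of the list against 2.01% of all genes. Nr4a1, a nuclear receptor that monocytes and activated lymphocytes switch on quickly, read 8.76, 9.15 and 8.30 in sham and 7.21, 7.46 and 7.88 in vehicle-labelled arrays. Every vehicle-labelled array was lower than every sham array, and the difference of -1.22 ± 0.21 made it 2.33-fold lower (limma, adjusted p = 0.00699), a call kept whichever array was left out. Klf4 (-0.66), Klf10 (-0.55) and Klf6 (0.48) were at the edge of the threshold, with adjusted p-values of 0.0489, 0.0487 and 0.0466. None of these was called with each array centred on its median. Leaving out 1 array removed the call of Klf6 in all 9 fits, that of Klf4 in all but the fit without sham 5 and that of Klf10 in all but the fit without vehicle 4, and their adjusted p-values rose to at most 0.163, 0.185 and 0.183.

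In the hypoxia and glycolysis list 4 of 32 genes rose (12.5%, against 1.58% of all genes). These were P4ha1, Egln3, Mxi1 and Bnip3l, with a list median of 0.06. P4ha1, a collagen hydroxylase induced by low oxygen, read 6.39, 6.48 and 6.93 in sham and 7.83, 7.97 and 8.39 in vehicle-labelled arrays (1.46 ± 0.26), a call lost without sham 3 (adjusted p = 0.0539). Egln3, an oxygen sensor, rose by 1.10 ± 0.14, and Mxi1 (1.30) and Bnip3l (1.01) are also in an erythroid list. Cirbp, a gene induced by cold and lowered by warmth, was the 1 call among 17 cold and circadian genes (5.88% fell, against 0.427% of all genes). It read 7.56, 7.71 and 7.62 in sham and 7.07, 7.14 and 6.86 in vehicle-labelled arrays, a fall by 0.61 on the log2 scale, and was not called without sham 4 or vehicle 5 (adjusted p up to 0.0677) nor with each array centred on its median. Of 17 Nrf2 antioxidant targets 3 rose (17.6%, against 1.58% of all genes). These were Gsta4 (2.10), Blvrb (2.18) and Gclm (1.86), the last pair also being erythroid list members, while Hmox1 (0.06) and Nqo1 (0.12) did not pass.

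Of 33 cell cycle genes 4 rose (12.1%, against 1.58% of all genes). They were the mitotic genes Tpx2 (1.06) and Ccnb2 (0.73) and the nucleotide synthesis genes Rrm2 (1.04) and Tyms (0.77). Tpx2 read 4.60, 4.77 and 4.70 in sham and 6.06, 5.80 and 5.38 in vehicle-labelled arrays, so this gene too was highest in vehicle 2. Ccnb2 was not called without vehicle 4 (adjusted p = 0.0635), where 2 genes of the list passed. Tyms was called only without model 2, sham 4 or vehicle 5 among the 9 such fits (adjusted p up to 0.152). Of 16 progenitor genes 1 rose (6.25%, against 1.58% of all genes). This was Procr (0.88), which was not called without sham 3, vehicle 2 or vehicle 4 (at most 0.0822).

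Of 68 cytosolic ribosomal protein genes 2 fell (2.94%, against 0.427% of all genes), Rps28 (-0.75 ± 0.11) and Rpl30 (-0.60 ± 0.12). The median was -0.13, against -0.06 over all genes, and 53 were negative, as were 9282 of all 14506 genes. Rps28 read 10.73, 10.68 and 10.47 in sham and 9.85, 9.80 and 9.97 in vehicle-labelled arrays. Rpl30 was not called without sham 4, vehicle 2 or vehicle 4 (adjusted p up to 0.0924). Both have many processed copies, so their probes may not be specific. None of 53 respiratory chain genes and none of 22 genes of the Bcl2 and death receptor families passed, where 2.01% of all genes did. A share of that size would give few or no calls in these lists. Of 34 proteasome and ubiquitin genes 1 rose (2.94%, against 1.58% of all genes). This was Psmd8 (0.68 ± 0.11), a subunit of the regulatory cap, which lost its call when all probes of the gene were averaged.

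Falls were fewer and smaller than rises. The largest was that of Nrp1, a co-receptor of semaphorins and of the vascular growth factor VEGF that some dendritic and regulatory T cells carry. It read 6.99, 7.92 and 6.82 in sham and 5.53, 6.06 and 6.08 in vehicle-labelled arrays, with sham 4 about 1 unit above the other sham arrays. The difference was -1.35 ± 0.25, or 2.56-fold lower (limma, adjusted p = 0.0107), and it lay between -1.56 and -1.01 with 1 array left out, with the call lost without vehicle 2 (0.0553). It was also lost with each array centred on its median. Nr4a1 came next. Slc25a23, a calcium-regulated carrier of adenine nucleotides in mitochondria, averaged 6.87 ± 0.12 in sham (SD, n = 3, lowest array 6.78) and read 5.82, 6.01 and 5.90 in vehicle-labelled arrays (-0.96 ± 0.12, adjusted p = 0.000422). Abcg3, a membrane transporter gene, read 5.91, 6.10 and 5.96 against 5.02, 5.31 and 4.98 (-0.89 ± 0.12). The 12 largest falls were taken only from called genes whose vehicle-labelled and sham arrays did not overlap. The others of the 12 largest falls were Faah (-0.83), Kir3dl1 (-0.83), Klf12 (-0.82), Ptms (-0.81), Spo11 (-0.79), Zfp512b (-0.78), Spn (-0.77) and Rps28 (-0.75). Kir3dl1 is a receptor of natural killer cells and Spn, or CD43, a surface mucin of leukocytes. With each array centred on its median, Faah, Klf12, Spo11 and Spn were not called. Faah, Klf12, Spo11 and Spn each lost the call without sham 4 or vehicle 4, and in up to 3 further fits (Faah and Spn without model 1 or sham 3, Spo11 without sham 3 or vehicle 2, Spn without vehicle 2, Klf12 without vehicle 5), with adjusted p-values up to 0.14, 0.0717, 0.0889 and 0.153.

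The vehicle-labelled rats could also be set directly against the other MCAO group, the model-labelled rats. Both were compared with the same 3 sham arrays, so their differences from sham are given side by side, and the direct test is that of vehicle-labelled minus model-labelled. It shares the vehicle-labelled arrays with the comparison above and is not independent of it. In this test 183 genes were higher and 43 lower in vehicle-labelled cells (1.56% of genes, 1.26% higher and 0.296% lower). The count of 226 became 108 without model 1, 149 without model 2, 127 without model 3, 112 without vehicle 2 and 113 without vehicle 4. Of the 229 genes that rose against sham, 153 were also higher than in model-labelled cells, and of the 62 that fell, 19 were also lower. No gene passed between model-labelled and sham cells in limma, where 880 genes had an unadjusted p under 0.05 and the smallest adjusted p was 0.085.

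For erythroid genes the difference between the MCAO groups was large. Of the 37 that rose, 34 were also higher in vehicle-labelled than in model-labelled cells, and for none of the 37 did the arrays of the MCAO groups overlap. They overlapped for 81.1% of all genes and for 45 of the 229 that rose. Alas2 read 9.74, 9.65 and 9.94 in the model-labelled arrays, between sham and vehicle-labelled, and was 1.57 higher in vehicle-labelled cells (limma, adjusted p = 0.000757). Bpgm behaved alike, at 8.68, 8.59 and 8.54. For Urod (7.87, 7.98 and 7.86), Tfrc (4.95, 5.56 and 5.23) and Klf1 (6.42, 6.39 and 6.46) the model-labelled arrays were at or near the sham values. In 17 of the 37 genes all 3 model-labelled arrays were above the highest sham array, as they were in 98 of all 229 genes that rose and in 4.69% of all genes. The 3 that did not pass between the MCAO groups were Cpox (0.30), Hbb (0.28) and Hbb-b1 (0.49, adjusted p = 0.0554).

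Of the 6 granule genes that rose against sham, 5 were higher in vehicle-labelled than in model-labelled cells. Ngp read 4.20, 3.99 and 4.67 in the model-labelled arrays, a difference of 3.28 from vehicle-labelled, and Lcn2 read 5.21, 4.92 and 5.72, a difference of 3.21. The exception was Mmp8 (2.01, adjusted p = 0.0905), for which model 3 at 7.84 lay above vehicle 5 at 7.52. Of the 6 mature neutrophil genes, S100a9 alone passed (1.16, adjusted p = 0.0121). Fpr1 had a larger difference of 1.71 that did not pass (adjusted p = 0.0948, 95% interval from 0.74 to 2.68), and Il1r2 one of 0.87 (-0.10 to 1.83). Whether the granule and mature lists differ from each other was not tested. Csf3r read 9.71, 9.80 and 9.61 in the model-labelled arrays, and vehicle-labelled minus model-labelled was -0.12 with a 95% interval from -0.39 to 0.16. For Trem1 (9.59, 9.82 and 9.51) it was 0.15 with an interval from -0.10 to 0.41.

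None of the 11 chaperone genes differed between the MCAO groups past the threshold. For all 11 every model-labelled array was above the highest sham array and the model-labelled arrays overlapped the vehicle-labelled ones. Among all 229 genes that rose, 98 had the first pattern and 45 the second, as did 4.69% and 81.1% of all genes. The genes were chosen by their difference from the same sham arrays, so these counts are a description. Hsph1 read 7.62, 7.52 and 9.16 in model 1, 2 and 3, and vehicle-labelled minus model-labelled was 0.38 with a 95% interval from -0.30 to 1.07. For Stip1 (9.16, 8.81 and 9.99) the difference was 0.17 with an interval from -0.32 to 0.65. For Hsp90aa1 (9.72, 9.44 and 10.64) it was 0.24, between -0.28 and 0.76. Model 3 was the highest of the 9 arrays for all 3, and its chaperone list mean of 0.91 above sham was higher than that of any vehicle-labelled array (0.48 to 0.75). P4ha1 (7.73, 7.54 and 8.69), Cirbp (7.06, 7.02 and 6.85) and Nrp1 (6.19, 6.23 and 5.74) also stood in model-labelled cells where they stood in vehicle-labelled ones, with differences of 0.08, 0.05 and -0.16 between the MCAO groups. The corresponding 95% intervals ran from -0.47 to 0.63, from -0.21 to 0.30 and from -0.70 to 0.38. Asns (6.98, 7.08 and 6.84), Slc25a23 (7.01, 6.74 and 6.78) and Rps28 (10.65, 10.56 and 10.56) did not move in this way: their model-labelled arrays lay at sham values, and Asns was 1.73 higher in vehicle-labelled cells.

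**Figure D4:**
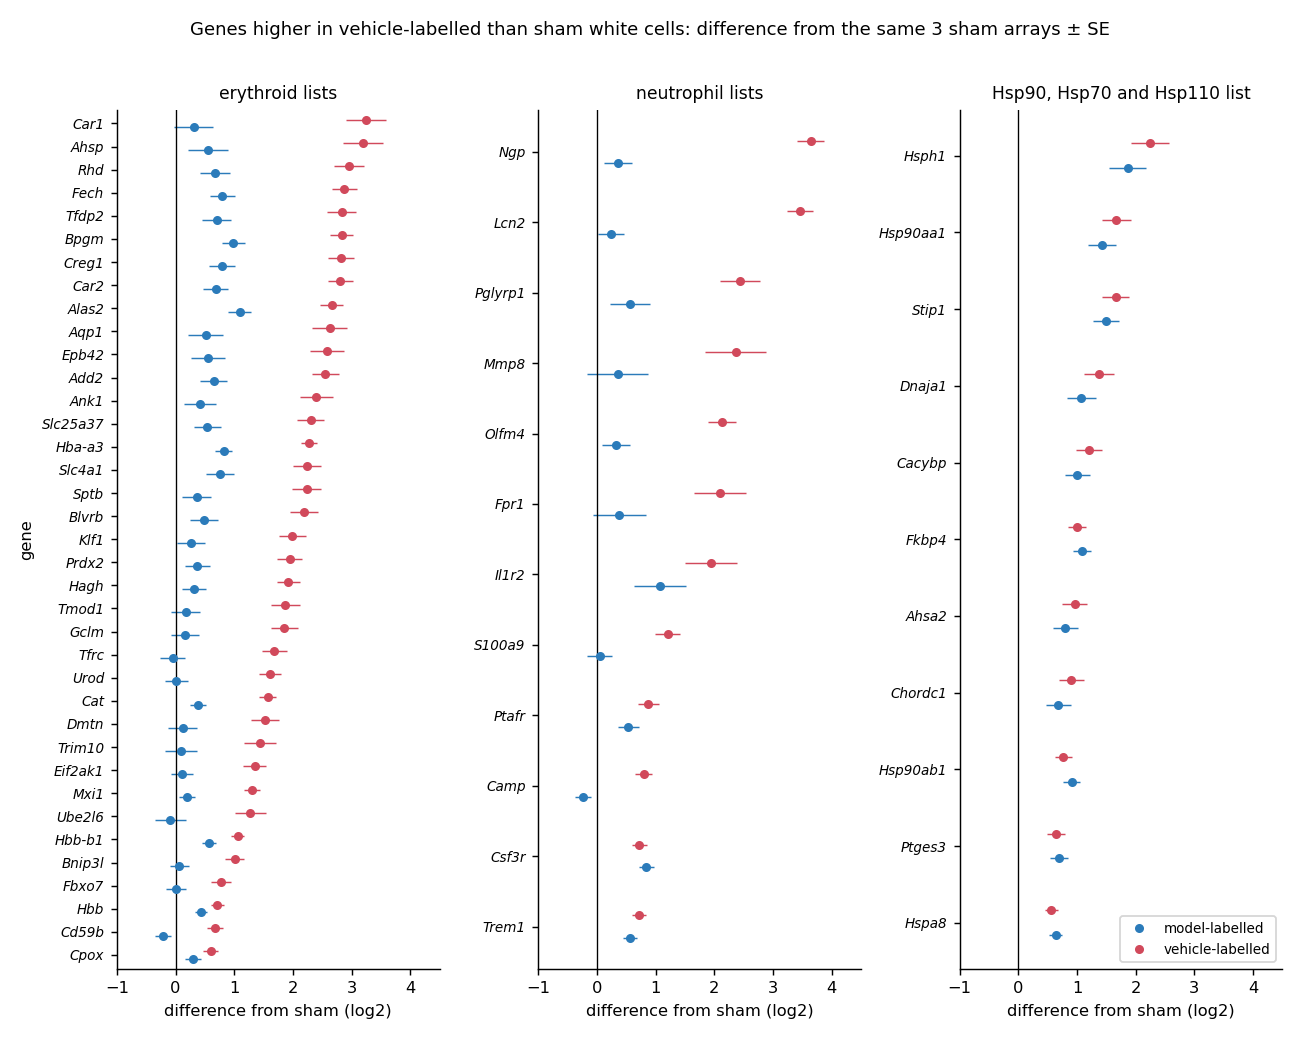
Difference from the same 3 sham arrays ± SE (log2, horizontal axis) of the genes of the erythroid (left), neutrophil (middle) and Hsp90, Hsp70 and Hsp110 (right) lists that rose in vehicle-labelled white cells. Blue points are model-labelled and red points vehicle-labelled samples. The colours are far apart for most erythroid genes and for Ngp and Lcn2, and close together for the chaperone genes, none of which differed between the MCAO groups past the threshold.

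The same contrast was available in the spleen and brain. The tissues are linked to a rat only through the titles, and the fit treated the arrays as independent. In a fit over all 27 arrays, the vehicle-labelled minus sham difference in white cells was unlike that in spleen for 112 genes (0.772% of genes, 0.724% with a higher difference in white cells) and unlike that in brain for 125 (0.862%, and 0.441% higher). The count against spleen became 74 without vehicle 4, and that against brain 53 without vehicle 2, 68 without vehicle 4, 60 without sham 3 and 69 without sham 4. These tests share the white-cell arrays with the results above. Of the 291 genes called in white cells, 98 differed from spleen and 62 from brain.

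For the 37 erythroid genes that rose in white cells the median difference was 1.99 in white cells, -0.36 in spleen and 0.07 in brain. Of these, 27 differed between white cells and spleen and 18 between white cells and brain, as did 97 and 56 of all 229 genes that rose. The genes were chosen by their white-cell difference, which is part of these tests, so the medians and counts are a description. In spleen, an organ of red cell formation in rodents, Ahsp averaged 11.26 in sham and 11.14 in vehicle-labelled rats, and Rhd 10.51 and 9.92. Ngp averaged 8.58 in spleen of sham and 7.01 in spleen of vehicle-labelled rats, a difference of -1.57 where white cells had 3.64. Of the 11 chaperone genes that rose, none differed between white cells and spleen, and 1, Hsp90aa1, between white cells and brain, where 0.772% and 0.862% of all genes did. Whether chaperone and erythroid genes differ from each other in this respect was not tested. The median difference of the 11 chaperone genes was 1.00 in white cells, 1.32 in spleen and 0.75 in brain. Fkbp4 rose in spleen (1.36) and brain (0.90) as in white cells (1.00). P4ha1 rose by 1.55 in spleen and 1.36 in brain, and Cirbp fell by 1.05 and 0.63.

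**Figure D5:**
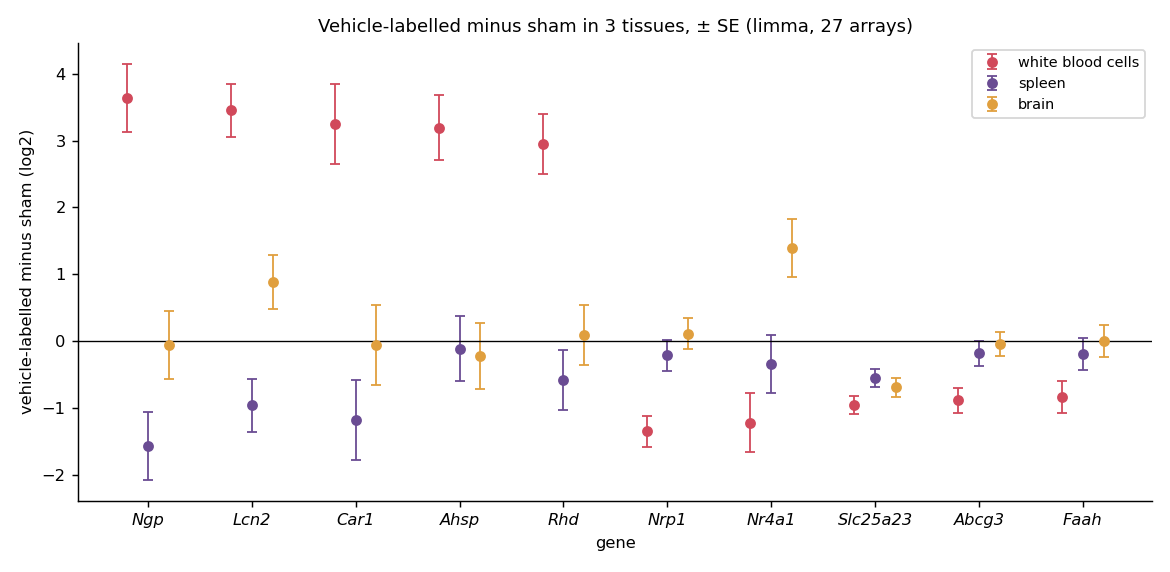
Vehicle-labelled minus sham difference (log2, vertical axis, ± SE from limma over 27 arrays) in white blood cells, spleen and brain, for the 5 genes with the largest rises and the 5 with the largest falls in white cells. The 5 rises stand between 2.95 and 3.64 in white cells and at or below 0.88 in the other tissues, and Slc25a23 is below 0 in all 3.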

How the data were processed

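RNA of white blood cells was hybridised to Affymetrix rat arrays. Per the submitters' processing notes, the authors used RMA (version not stated), which corrects background, normalizes and summarizes probes. The deposited values are taken as log2 from their range (1.53 to 13.49); the labels state no scale, nor whether tissues were normalized together. Arrays have no read depth; the 3 arrays per group limit the precision. Of 27596 probes, 15310 had 1 gene symbol, 323 several and 11963 none. Genes are given by symbol, with no position or sequence, since no build of the array was used here. The 9 white-cell arrays were modelled in R 4.3.3 by limma 3.58.1 (2-sided moderated tests from lmFit and eBayes, 6 residual degrees of freedom), with contrasts between groups, and the tissue differences over 27 arrays. The procedure was tested on simulated data. The members and the 31 gene lists (746 of 865 symbols measured) were chosen with earlier results of these data known. Named genes were the 12 largest rises and 12 largest falls with non-overlapping groups, up to 4 called members per list with the smallest p, and cell type markers; other list members were named after their values were seen. Alternatives changed the arrays fitted, scaling, filter, probe choice, variance model, replicate block and threshold, and left out each array. List counts under these alternatives, and without sham 3, were added after seeing the data.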

Additional observations from a re-analysis of the deposited data

Results flagged for a closer look

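Vehicle-labelled minus sham differed between white blood cells and spleen for 112 genes and between white blood cells and brain for 125 genes (limma over 27 arrays, adjusted p under 0.05). The tests of the difference itself are given here for the 5 largest rises and the 5 largest falls in white cells. These genes were chosen by their white-cell difference, which is part of each test, so the tests are not independent of the choice.

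Ngp differed most: the white-cell difference was 5.21 ± 0.72 above that in spleen (adjusted p = 0.000369) and 3.71 ± 0.72 above that in brain (0.0119). Lcn2 was 4.41 ± 0.56 above spleen (0.000182) and 2.57 ± 0.56 above brain (0.0262), where its own difference was 0.88. Ahsp was 3.31 above spleen and 3.41 above brain, and Rhd 3.54 and 2.87, all past the threshold. Car1 was 4.42 ± 0.85 above spleen (0.00751) and 3.31 above brain, which did not pass (0.0686); the spleens of vehicle-labelled rats varied widely for this gene (SD 2.03, n = 3).

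Among the falls, Nrp1 in white cells was 1.46 below brain (a difference of -1.46 ± 0.33, adjusted p = 0.0293), while against spleen (-1.14) it did not pass (0.14). Nr4a1 fell in white cells and had a difference of 1.39 in brain, so the white-cell difference was -2.61 ± 0.62 relative to brain (0.0422), and -0.87 relative to spleen (0.617). Slc25a23, Abcg3 and Faah did not pass against either tissue.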

How the results depend on the processing

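The 291 genes of vehicle-labelled minus sham became 208 with only the 2 groups fitted, 202 with all 27 arrays, 303 after quantile normalization, 268 with median centring, 442 at an adjusted p under 0.10, and 131 at 2-fold or more. Leaving out 1 array gave 162 to 350. Of 98 named genes and called list members, 60 passed in all 9 such fits, 43 in every alternative, and 0 reversed. The 226 genes of vehicle-labelled minus model-labelled became 555 with array weights and 109 at 2-fold or more, and 108 to 273 with 1 array left out (108 without model 1). The 112 genes that differed from spleen ranged over 74 to 140 with 1 array left out (74 without vehicle 4), and the 125 that differed from brain over 53 to 142 (53 without vehicle 2). Rat numbers shared between groups mark different rats, and same-numbered arrays had residual correlations between -0.279 and 0.0156. With the number as a replicate block the counts were 107, 7, 131 and 143 in the same order. The tissue fit did not link the arrays of 1 rat. With rat as a random block, the 112 and 125 genes became 151 and 165. With 3 arrays a group, small changes may pass unseen.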

Other observations

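The genes named in this part were chosen after their values were seen. Of the 291 genes that differed from sham, 204 were in none of the 31 lists. Several have a known place in red cell or iron biology. Alox15, the lipoxygenase that reticulocytes carry, read 8.80, 8.25 and 9.31 in sham and 11.83, 11.34 and 11.15 in vehicle-labelled arrays, a rise of 2.65 ± 0.31. Glrx5, needed to build iron-sulphur clusters, rose by 2.36 and Ncoa4, the receptor for the breakdown of ferritin, by 1.78. Slc25a39, a mitochondrial carrier, rose by 1.89, and Tspan33, a tetraspanin of blood cells, by 2.45. All 5 were lowest in vehicle 5 of the vehicle-labelled arrays.

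Cmpk2, a nucleotide kinase gene next to Rsad2 in mammals and likewise induced by interferon, rose by 1.91, and Isg20, an interferon-induced nuclease, by 1.44. Clec4d, a myeloid lectin receptor, read 7.92, 7.41 and 8.09 in sham, 8.53, 8.80 and 9.03 in model-labelled and 8.68, 9.54 and 8.95 in vehicle-labelled arrays (1.25 ± 0.22 against sham).

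A difference of 2 or more did not pass the test for 4 genes, whose arrays disagreed within 1 or more groups. Serpinb11 read 2.54, 2.36 and 2.46 in sham, 8.53, 8.55 and 2.35 in vehicle-labelled, and 2.40, 2.33 and 9.49 in model-labelled arrays. Ifit1, an interferon-induced gene, read 3.30, 6.07 and 6.26 in sham, 9.77, 10.11 and 3.13 in vehicle-labelled and 3.34, 7.33 and 3.50 in model-labelled arrays. Retnlg, a neutrophil gene of the resistin family, read 4.05, 3.58 and 3.78 in sham and 5.49, 7.66 and 4.33 in vehicle-labelled arrays. Ceacam1, a cell adhesion gene, read 8.75, 7.09 and 10.74 in sham and 6.75, 6.50 and 7.19 in vehicle-labelled arrays, and was lower in vehicle-labelled than in model-labelled cells (-2.94, limma, adjusted p = 0.0252).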
